A study of Mus musculus with 4 samples.

Results

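Leptin and other genes that mark fat cells were followed in whole normal skeletal muscle of the mouse. The set held 10 adipocyte genes, Lep, Adipoq, Retn, Cfd, Plin1, Fabp4, Cidec, Pparg, Cebpa and Lipe, and a gene counted as measured where the platform annotation gave it a probe set of its own. By that rule 8 of the 10 were measured, out of 12393 genes on the array, and Cfd and Plin1 were not analysed here. The probe set with the highest mean stood for its gene. The list was drawn up with earlier results of these arrays known, in which Lep varied widely between samples and several fat genes were lower in 2 of them. All values of these 8 genes are therefore given as descriptions, without a test.

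The muscle came from Wild Type mice on a mixed 129S4/SvJae and C57BL/6 background, with 1 Affymetrix array for each of 4 samples, which the labels place in a single group. Their titles are nm7, nm8, skm4 and skm5, and the labels do not explain nm or skm, and name neither the muscle sampled nor the animals' age, feeding state or hour of collection. The prefix is the only label that divides the samples, so skm minus nm differences describe 2 samples against 2 that may differ in how they were collected, and not a treatment. Nothing in the labels says that the samples are from separate animals, so the spread between them may be technical. In the series, this tissue is the normal counterpart of mouse sarcomas, which were not analysed here.

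Skeletal muscle holds adipocytes between its fibres and in the fat along its fascia, and whole muscle RNA contains transcripts of both. Adipocytes store triglyceride in a lipid droplet and secrete hormones: leptin reports the size of the fat store to the brain and falls with fasting, and adiponectin acts on muscle and liver to raise fatty acid use. PPARgamma and C/EBPalpha are the transcription factors that establish and keep the adipocyte state. In whole tissue, fewer fat cells and less RNA of a gene per fat cell cannot be told apart.

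The sequence before the start of the 3 hormone genes is shown because leptin, adiponectin and resistin are made by the same cell type yet had very different spreads between these samples. Each is the 250 bases before the RefSeq start on build GRCm38.p6, plus strand, 5′ to 3′, with matches to 7 searched motifs in capitals: Lep at chr6:29059971-29060220, Adipoq at chr16:23146286-23146535 and Retn at chr8:3655520-3655769.
Lep: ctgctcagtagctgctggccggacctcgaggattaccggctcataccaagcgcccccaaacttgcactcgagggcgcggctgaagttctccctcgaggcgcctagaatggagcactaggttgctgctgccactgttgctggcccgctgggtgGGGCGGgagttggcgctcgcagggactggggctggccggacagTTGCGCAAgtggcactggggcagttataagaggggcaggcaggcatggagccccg
Adipoq: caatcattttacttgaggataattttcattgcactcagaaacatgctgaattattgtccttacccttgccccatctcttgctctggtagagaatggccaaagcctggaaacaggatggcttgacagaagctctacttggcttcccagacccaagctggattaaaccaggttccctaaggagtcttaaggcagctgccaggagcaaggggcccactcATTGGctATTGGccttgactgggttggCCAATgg
Retn: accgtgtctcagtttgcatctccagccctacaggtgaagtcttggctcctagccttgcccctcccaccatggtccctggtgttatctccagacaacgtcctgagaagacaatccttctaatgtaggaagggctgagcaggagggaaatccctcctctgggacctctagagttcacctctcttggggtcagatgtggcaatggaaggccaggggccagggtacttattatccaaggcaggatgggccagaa

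The motifs, searched on both strands, were the C/EBP palindrome TTGCGCAA, the CCAAT box, the TATA box TATAAA, the E-box CACGTG, the GC box GGGCGG, the nuclear receptor half-site AGGTCA and the PPAR direct repeat, which is the half-site repeated after a gap of 1 base. The Lep window held the C/EBP palindrome 48 to 55 bases before the start and a GC box 93 to 98 bases before it. The palindrome is present in 0.164% of the 32851 RefSeq windows of this length, and the GC box in 32.7%. The Adipoq window held 3 CCAAT boxes, 2 of them on the minus strand, all within 34 bases of the start, and 33.8% of windows hold at least 1. The Retn window held none of the 7. In all, 9 of the 10 genes matched 13 windows, and Lep was the gene among them with the palindrome. The E-box was found in a window of Lipe (6.02% of all windows), the TATA box in Cebpa and 1 of 3 Pparg windows (12.4%), the half-site in 2 Pparg windows (14.0%), and the direct repeat in none of the 13 (0.0335%). These matches describe the letters only.

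Values are log2 expression values from robust multi-array averaging (RMA), on which a step of 1 is a 2-fold change. Where sample values follow each other, nm7 stands before nm8 and skm4 before skm5. Levels of different probe sets are not compared with each other. All 8 genes read above the control probe sets of the bacterial TrpnX transcript, at 3.40 to 4.05, in every sample, the lowest value being 6.80 for Lep in skm4. The array medians were 7.26 to 7.30. Skeletal myofibre genes such as Ckm and Acta1 averaged 14.32 and 14.15 over 8 genes in nm and 14.28 and 14.11 in skm, so the tissue carried its defining transcripts in every sample.

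Leptin had the widest spread of the 8 genes. Lep read 9.28 and 9.55 in nm and 6.80 and 7.50 in skm, an SD of 1.34 (n = 4) and a 6.76-fold range. The samples fell in 2 pairs: the lower nm value lay 1.77 above the higher skm value, against 0.28 between the nm samples and 0.71 between the skm samples. The skm mean of 7.15 was 4.80-fold below the nm mean of 9.42, a difference of -2.26 ± 0.26 (SE, n = 2 per prefix). Leaving out any 1 sample kept the difference between -2.62 and -1.91.

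Adiponectin, the most abundant hormone of fat cells in blood, was lower in the same samples by less. Adipoq read 12.95 and 12.92 in nm and 12.19 and 12.55 in skm, without overlap and with a difference of -0.56 ± 0.16, or 1.48-fold. The nm samples lay 0.02 apart and the skm samples 0.36 apart, so the gap of 0.37 between the pairs was about as wide as the spread within skm. Adipoq is bright on these arrays, and whether its difference is understated near the top of the scale was not tested.

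Resistin, a small secreted protein that opposes insulin action in mice, did not divide by prefix. Retn read 9.42 and 10.19 in nm and 8.97 and 9.88 in skm, so each prefix held a high and a low sample. Its difference of -0.38 ± 0.38 became 0.01 without nm8 and 0.08 without skm4. The SD of Retn, 0.53, was larger than that of Adipoq, 0.36, although its prefix difference was smaller.

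**Figure D1:**
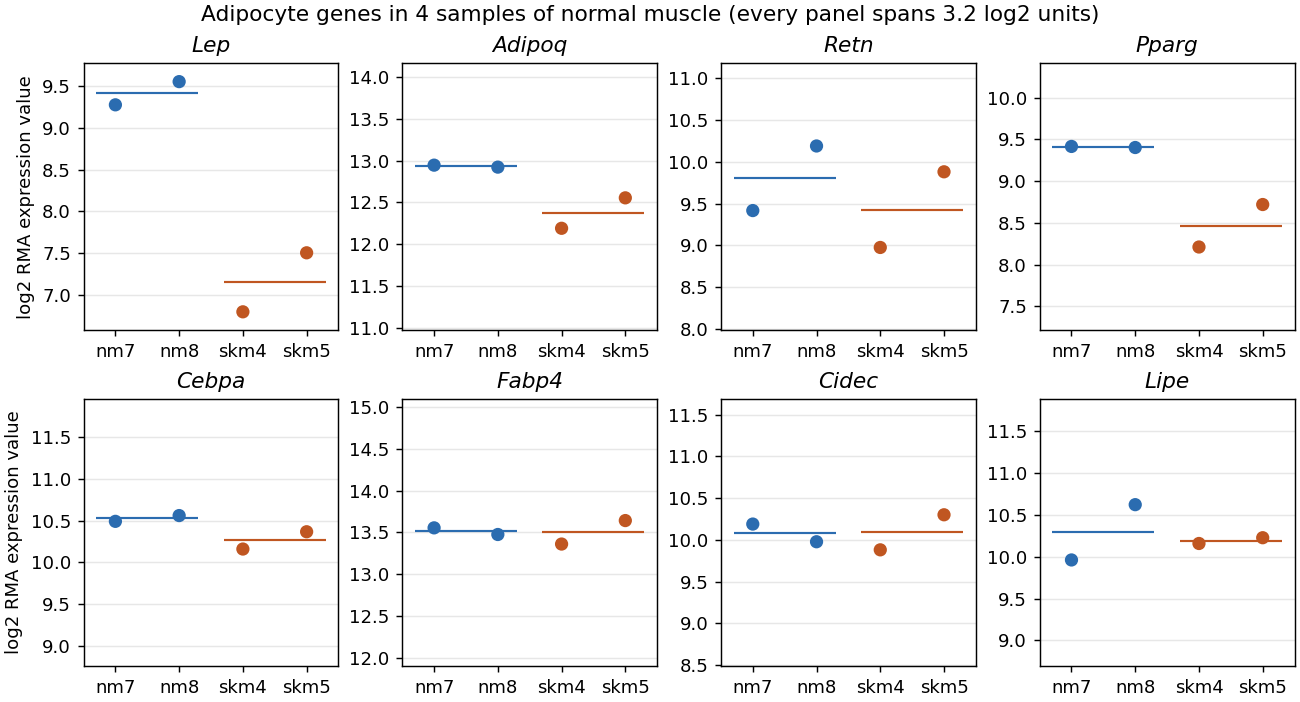
Log2 RMA expression values (y axis) of the 8 measured adipocyte genes in each sample of normal muscle (x axis; blue, nm; orange, skm), with a horizontal line at the mean of each prefix and the same height of scale in every panel. Lep separates the prefixes by the widest gap, 1.77, Pparg, Adipoq and Cebpa by narrower ones, and Retn, Fabp4, Cidec and Lipe overlap.

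Both transcription factors were lower in skm, as Lep and Adipoq were. Pparg, the nuclear receptor that drives fat cell formation, read 9.42 and 9.40 in nm and 8.21 and 8.72 in skm. The nm samples were 0.01 apart and both skm samples lower, with a gap of 0.68 and a difference of -0.94 ± 0.19 (1.92-fold). Cebpa, which maintains Pparg and the insulin response of fat cells, read 10.49 and 10.56 in nm and 10.16 and 10.37 in skm, without overlap. Its difference was -0.26 ± 0.13, and its gap of 0.12 was narrower than the 0.21 between the skm samples.

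Cidec and Lipe did not divide by prefix. Cidec, which helps lipid droplets fuse into large ones, read 10.19 and 9.98 in nm and 9.88 and 10.30 in skm, with a difference of 0.01 ± 0.18. Both its highest and its lowest values were skm samples. Lipe, the hormone-sensitive lipase that releases stored fat, read 9.96, 10.62, 10.16 and 10.23, where the nm samples were the extremes, and differed by -0.10 ± 0.23. Errors of this size do not show that the prefixes had equal levels.

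Fabp4, the fatty acid binding protein of adipocytes and of capillary endothelium, was the least variable of the 8. It read 13.55 and 13.47 in nm and 13.36 and 13.64 in skm, an SD of 0.12 and a difference of -0.01 ± 0.14. The gene had 4 probe sets, the only member with more than 1, and they did not give the same picture. A second bright one read 12.46, 12.46, 12.34 and 12.54, with a difference of -0.02. The 2 dimmer ones were higher in skm, from 8.03 and 8.50 in nm to 8.62 and 9.23 in skm in one, and from 7.17 and 7.25 to 7.64 and 7.38 in the other, with differences of 0.66 and 0.30. Both bright probe sets read above 12, and whether compression at the top of the scale bears on their small differences was not tested. The difference turned positive in several settings, up to 0.66 with suffix-marked probe sets left out.

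Of the 8 genes, 4 (Lep, Adipoq, Pparg and Cebpa) were lower in both skm samples than in both nm samples, and none was higher in both. Over all 12393 genes, 28.6% had no overlap with skm lower and 25.8% with skm higher. The median difference of the 8 genes was -0.32, against -0.0034 over all genes, and their median SD was 0.32 against 0.191. The median moved with each sample: leaving out nm7 gave -0.49, leaving out nm8 -0.16, leaving out skm4 -0.11 and leaving out skm5 -0.56. So did the counts without overlap. With skm5 left out, 7 of the 8 were lower and none higher, where 39% of all genes were lower. With skm4 left out, 4 were lower and 2, Cidec and Fabp4, higher, where 41.2% and 35.2% of all genes were. With nm7 left out, 6 were lower and none higher, against 40.3% of all genes lower. With nm8 left out, 4 were lower and 1, Lipe, higher, against 38.4% and 38.2%.

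Within the skm pair the order was shared by the whole set. All 8 genes read lower in skm4 than in skm5, by 0.07 for Lipe to 0.91 for Retn, where 46.8% of all genes did. In 7 of the 8, all but Lipe, skm4 had the lowest value of the 4 samples, where 26.6% of all genes did. Within the nm pair the genes were divided, 4 being lower in nm7 (Lep, Retn, Cebpa and Lipe) and 4 in nm8. With 1 array a sample, these orders have no replicate check.

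The receptors of the hormones differed by less than Lep did, and the values for Lepr and Adipor1 depended on the probe set. Lepr, the leptin receptor, read 6.50 and 6.70 in nm and 6.97 and 6.64 in skm, with overlap and a difference of 0.20 ± 0.16, which was 0.04 without skm4 and 0.10 without nm7. The dimmer Lepr probe sets differed by 0.18 and -0.20. Adipor1, the main adiponectin receptor of muscle, differed by 0.05 ± 0.12 with overlap in its brightest probe set. Its other 2 probe sets differed by 0.48 and 0.23, both higher in skm without overlap. Adipor2, the second receptor, was lower without overlap, by -0.23 ± 0.12. Socs3, a feedback inhibitor that leptin and other cytokines induce, had the lowest difference of the 10 genes of receptors and their signalling, with values of 8.71, 8.93, 7.73 and 8.04 and a difference of -0.94 ± 0.16. Slc2a4, the insulin-regulated glucose transporter of muscle and fat, had the highest difference of these partners, 0.23 ± 0.11. The list's median was 0.03.

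Of 83 other measured genes in 9 lists of adipocyte and lipid biology, 0 passed limma's test over all genes at an adjusted p of 0.05 in either direction, where 0.0323% of all genes passed. At an unadjusted p under 0.05, 23 were lower in skm and 6 higher, which is to be read against 13.0% and 10.6% of all genes. The number called depends on the variance model: with an intensity trend, tried after the data were seen, 18 of the 83 fell in skm and 5 rose. Under that trend, 638 of all 12393 genes fell and 472 rose. These lists, too, were chosen with earlier results known.

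Of the 9 lists, fatty acid synthesis had the lowest median difference. The pathway makes new fat from glucose carbon in fed fat tissue and liver. All 10 of its genes had their lowest value in skm4, where 26.6% of all genes did. Of the 10, 9 were lower in skm without overlap, where 28.6% of all genes were, with a median difference of -0.66. At an unadjusted p under 0.05, 7 of them were lower, where 13.0% of all genes were, and 0 after adjustment. Acly, which makes cytosolic acetyl-CoA, read 11.63 and 12.11 in nm and 9.78 and 10.56 in skm, a difference of -1.70 ± 0.30. Fasn, the fatty acid synthase, differed by -0.85 ± 0.22 and was -0.57 without nm8. Scd1, which makes monounsaturated fatty acids, differed by -0.81 ± 0.21. Mlxipl, a glucose-sensing activator of the pathway, had the smallest difference, -0.11 ± 0.12. Srebf1, the insulin-responsive activator of the same enzymes, differed by -0.84 ± 0.14.

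Other transcription factors of fat cells went both ways. Of 14 besides Pparg and Cebpa, 3 were lower and 6 higher in skm without overlap, where 28.6% and 25.8% of all genes were. Their median difference was 0.04. Cebpd, an early factor of fat cell formation that glucocorticoids induce, had the highest difference, from 9.58 and 10.23 in nm to 10.63 and 11.24 in skm (1.03 ± 0.29). Its second, dimmer probe set differed by 0.33 with overlap. Rxra, the partner of PPARgamma on DNA, had an nm mean of 9.002 and read 9.96 and 9.77 in skm (0.86 ± 0.13). A second Rxra probe set differed by 0.11. Cebpb, the other early factor, differed by 0.30 ± 0.12, and its second probe set by 0.84.

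Lipid droplet genes were divided, 4 of the 8 besides Cidec being lower in skm without overlap and 4 higher. Over all genes, 28.6% were lower and 25.8% higher. Among the Plin coat genes of the list, Plin2 was lower and Plin3, Plin4 and Plin5 were higher. Plin2, a coat protein found in most cells that store lipid, differed by -0.72 ± 0.12, and Cidea, a droplet protein best known from brown fat, by -0.72 ± 0.14. Plin5, a coat protein of oxidative tissues including muscle, read 8.40 and 8.14 in nm and 9.46 and 9.09 in skm, a difference of 1.004 ± 0.18, or 2.01-fold. The 5 lipolysis genes besides Lipe had a median of -0.19, from -0.51 ± 0.14 for G0s2, an inhibitor of the triglyceride lipase, to 0.17 ± 0.26 for Aqp7, a glycerol channel. That median was -0.0069 with a gene's probe sets averaged and -0.09 with nm8 left out. The sign of the Aqp7 difference turned to -0.08 with nm8 left out and to -0.12 with skm5 left out. Pnpla2, that lipase itself, differed by 0.14 ± 0.12 and Mgll, which completes lipolysis, by -0.19 ± 0.12. The 4 probe sets of Mgll went both ways, from -0.27 to 0.63.

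**Figure D2:**
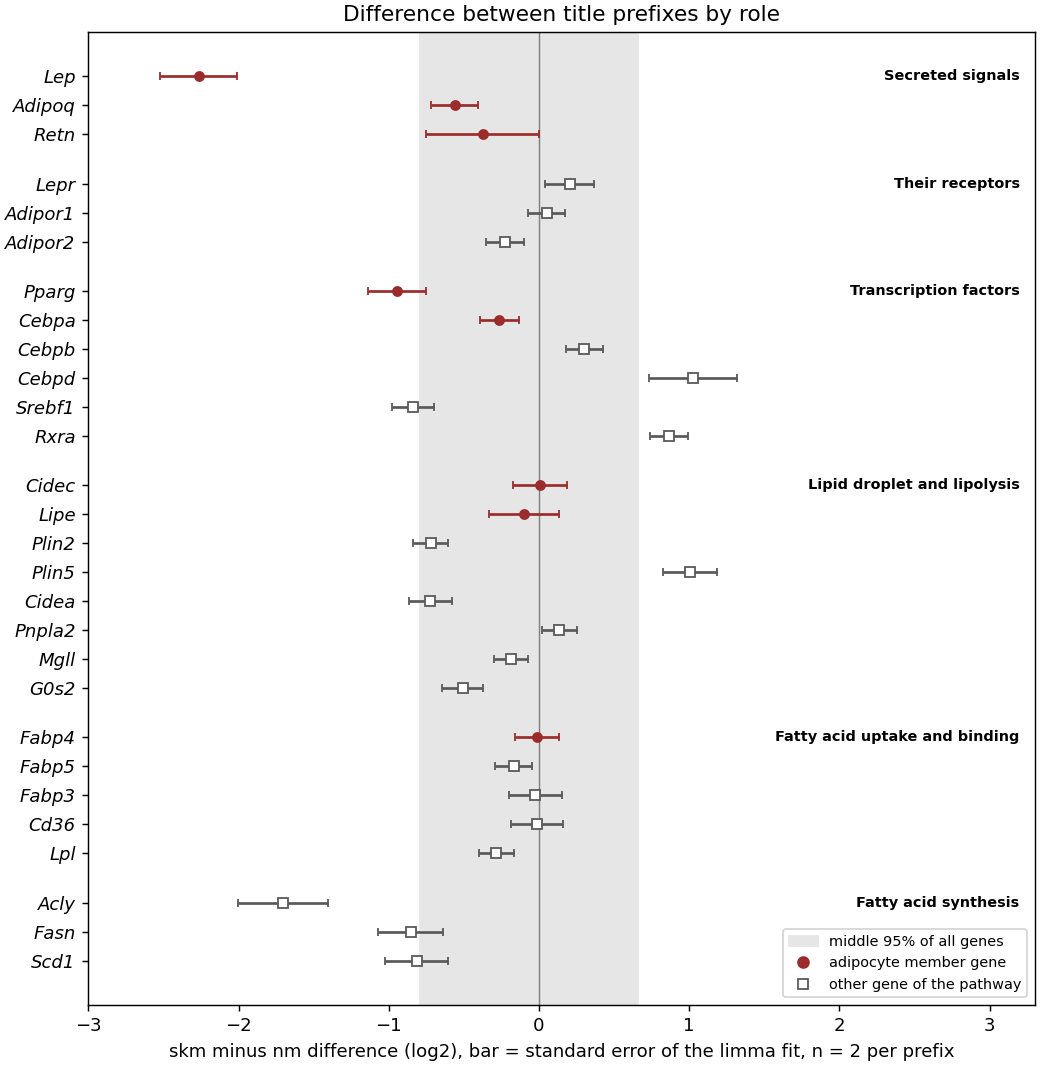
Skm minus nm difference on the log2 scale (x axis) with its standard error for the measured adipocyte genes (filled circles) and other genes of the pathway (open squares), grouped by role. The grey band holds the middle 95% of all genes, from -0.79 to 0.66; Lep at -2.26, Pparg, Srebf1, Acly, Fasn and Scd1 lie below it, and Cebpd, Rxra and Plin5 above it.

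Of the 9 genes of fatty acid uptake besides Fabp4, 5 were lower and 1 higher in skm without overlap, where 28.6% and 25.8% of all genes were. Their median difference was -0.17, from -0.37 ± 0.19 for Cav2, a caveolin, to 0.52 ± 0.13 for Slc27a1, a fatty acid transporter of muscle and fat. Lpl, the lipoprotein lipase of capillaries, differed by -0.28 ± 0.12, Fabp3, the muscle counterpart of Fabp4, by -0.03 ± 0.18, and Cd36, the fatty acid translocase, by -0.01 ± 0.17. Fabp5 differed by -0.17 ± 0.12, but its second probe set differed by 0.23, and the mean of both by 0.03. The 7 triglyceride synthesis genes had a median of -0.16, from -0.45 ± 0.12 for Lpin1 to 0.48 ± 0.20 for Pck1, which supplies glycerol in fat cells. The second Lpin1 probe set differed by 0.16, and the Pck1 difference was 0.24 with nm8 left out. With a gene's probe sets averaged, the median of the triglyceride synthesis genes was 0.07.

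Hormones and other genes of adipocytes beyond the set lay lower on balance. Of the 10 other secreted factors, 6 were lower and 1 higher without overlap, where 28.6% and 25.8% of all genes were. Their median was -0.23, and the highest was Sfrp5 at 0.27 ± 0.12. With suffix-marked probe sets left out, that median was 0.01. The 11 other adipocyte genes had a median of -0.36, from Sncg, a synuclein abundant in fat, at -1.52 ± 0.41 to Cyp2e1, an oxidase of liver and fat, at 0.97 ± 0.39. The Cyp2e1 difference was 0.41 with nm8 left out and 1.54 with nm7 left out. Sncg read 8.58, 9.77, 7.38 and 7.93, and its difference was -0.92 without nm8. Car3, a carbonic anhydrase abundant in both fat and slow muscle fibres, differed by -0.13 ± 0.12 near the top of the scale. Its second probe set differed by 0.20, and the mean of both by 0.03.

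Of the 5 genes with the profile most like that of Lep, 3 are leukocyte genes. Likeness was the Euclidean distance between log2 values over the 4 samples, each gene centred on its own mean. The values were not scaled, so the distance counts the size of a change as well as its direction. On this measure Ltb, a lymphoid cytokine, was nearest at 0.30, then Cd3g, a T cell receptor chain, at 0.35, Lpxn, a leukocyte adaptor, at 0.43, Mki67, a proliferation marker, at 0.55, and Acly at 0.58. Of 12392 genes, 38 lay within a distance of 1. Pparg, the nearest of the other adipocyte genes, lay at 1.34 with 135 genes nearer, and Fabp4 and Cidec at 2.28 and 2.31, about the 2.33 of a gene with no variation. Pparg, Adipoq and Cebpa were lower in both skm samples, as Lep was, and their smaller changes add to their distance. Their SDs were 0.58, 0.36 and 0.18, against 1.34 for Lep. With 4 samples such a profile has few degrees of freedom, and likeness says nothing of shared control.

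**Figure D3:**
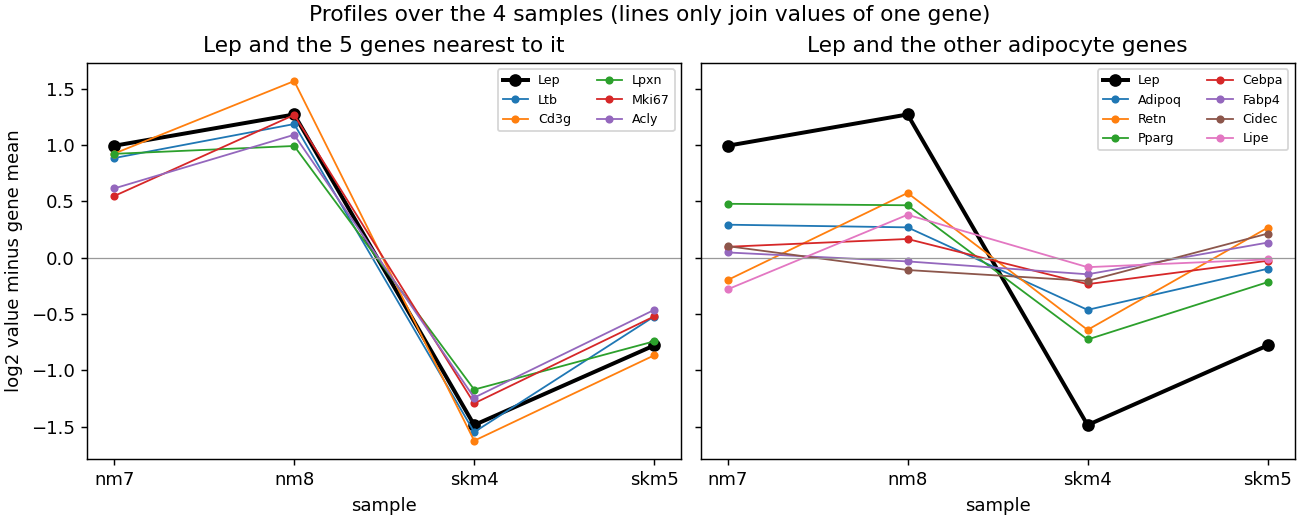
Log2 values minus the gene's own mean (y axis) in the 4 samples (x axis) for Lep with the 5 genes nearest to its profile (left) and Lep with the other 7 measured adipocyte genes (right). The nearest genes track Lep between 1.57 and -1.62, whereas the other adipocyte genes stay between 0.57 and -0.73.

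Some markers of other cells moved with Lep, and their part in the result was not tested. All 8 measured lymphocyte markers were lower in skm without overlap, where 28.6% of all genes were. Their list means were 8.04 and 8.17 in nm and 5.93 and 6.88 in skm. Of the 3 measured lymph node genes, Glycam1, made by lymph node venules, went with the lymphocyte markers and read 9.69, 10.14, 4.59 and 7.77. Cxcl13 overlapped between the prefixes at 7.44, 7.80, 7.04 and 7.81. Madcam1 overlapped too and was highest in skm4, at 5.55, 5.86, 6.29 and 5.68. The mean of the 3, at 7.56, 7.93, 5.97 and 7.09, thus mainly followed Glycam1. Glycam1 in skm4 and Cd3g in skm4, at 4.90, were dim but still above the bacterial controls. The 8 adipocyte genes averaged 10.66, 10.84, 9.97 and 10.40. By list mean, nm8 was highest and skm4 lowest in all 3 lists, in the lymph node list mainly through Glycam1.

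Other cell types did not show that order. The 8 macrophage markers averaged 9.21, 9.10, 8.74 and 9.21, so nm8 was not highest, but skm4 was again lowest. In 6 of the 8, skm4 had the lowest value, where 26.6% of all genes did. Without overlap, 2 were lower, where 28.6% of all genes were, among them Mrc1, a mannose receptor, at -0.49 ± 0.14. The 7 endothelial markers averaged 8.86, 8.81, 9.01 and 9.11 and went both ways, from Kdr at -0.58 ± 0.12 to Pecam1 at 1.31 ± 0.16. Whether endothelium had a part in the Fabp4 values was not tested. The 7 keratinocyte markers averaged 5.91, 6.33, 6.12 and 7.77, highest in skm5, although Sfn among them was flat at 6.06, 6.13, 6.17 and 6.12. Whether skin transcripts go with the adipocyte values of skm5 was not tested. Among myofibre markers Myh7, the slow myosin, differed most, at -0.45 ± 0.40, but the difference was 0.14 with skm5 left out and -1.05 with skm4 left out.

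**Figure D4:**
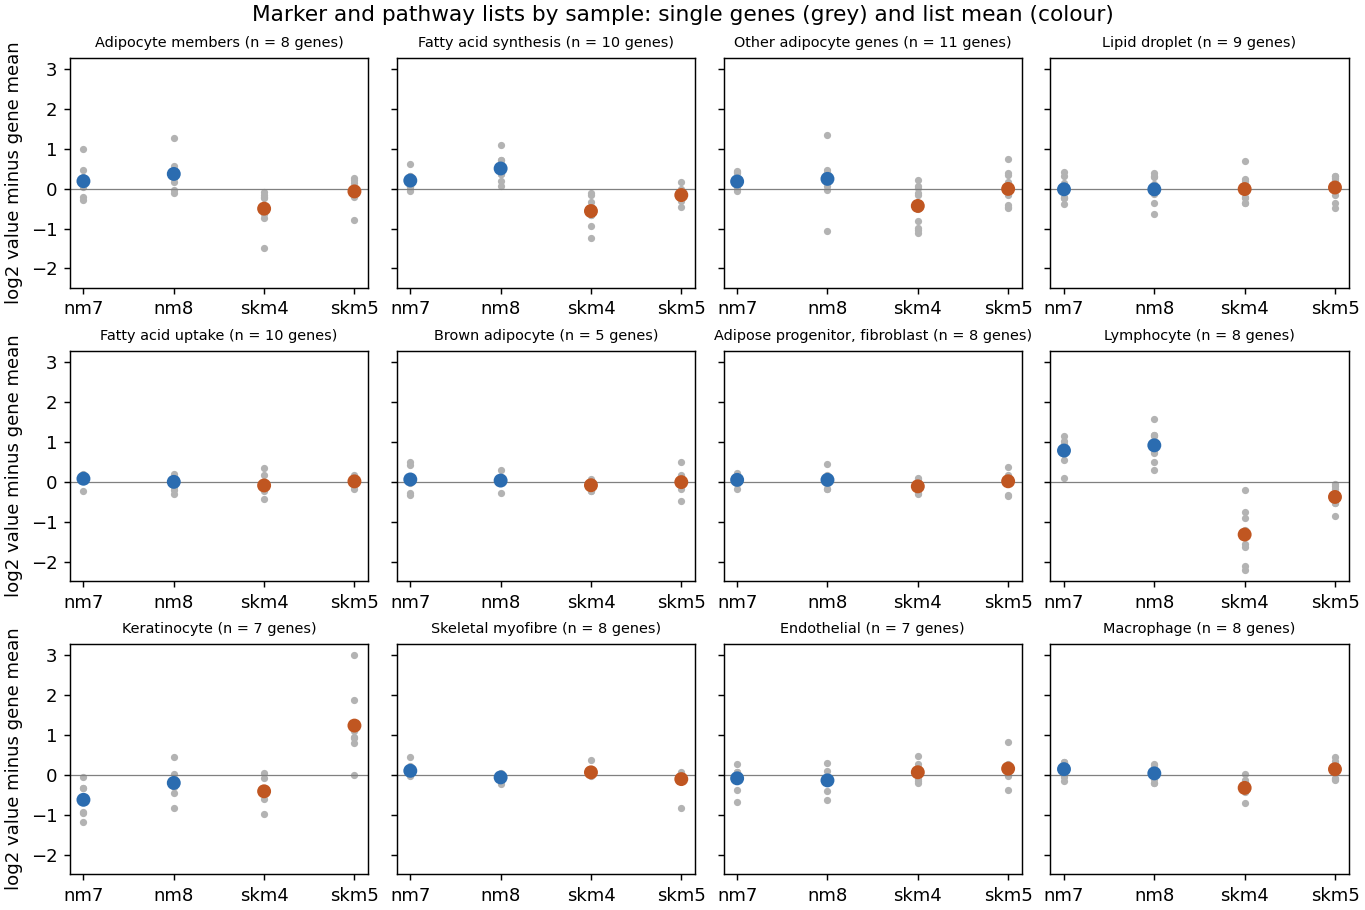
Log2 values minus each gene's mean (y axis) in the 4 samples (x axis) for 12 lists; grey points are genes and coloured points the list mean (blue, nm; orange, skm). The adipocyte and fatty acid synthesis means are lowest in skm4, at -0.50 and -0.56, as are the lymphocyte mean at -1.32 and the macrophage mean at -0.33. The keratinocyte mean is highest in skm5 at 1.24.

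Clock genes, which follow the hour of the day, also divided the samples. None of the 11 measured clock genes overlapped between nm and skm, 4 being lower and 7 higher in skm, where 28.6% of all genes were lower and 25.8% higher, and 1 fell and 1 rose in limma's test over all genes. Arntl, an activator of the clock, fell by 1.79 ± 0.12 and Per2, a repressor it drives, read 5.08 and 4.03 in nm and 7.62 and 7.50 in skm. Of 6 fasting-response genes of muscle, 1 was lower and 2 higher without overlap, near the share of all genes. Ddit4, which glucocorticoids and fasting induce, differed by 2.52 ± 0.41 and Angptl4, a fasting-induced inhibitor of lipoprotein lipase, by -0.55 ± 0.15. The other Angptl4 probe set, at the level of the bacterial controls, differed by -0.03. The part of the clock and fasting genes in the Lep difference was not tested.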

How the data were processed

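The authors deposited log2 expression values per probe set for 4 arrays, made with RMA in Affymetrix Expression Console 1.1, as the submitters' processing notes list, and running from 2.80 to 14.76, from which the log2 scale was inferred. The sources used here do not say which arrays were normalized together. RMA corrects background, which compresses differences at the low end, and gives the arrays a common distribution. Whether differences at the top of the scale were compressed was not tested.

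Of 22690 probe sets, 64 were controls, 20380 had 1 gene, 691 several and 1555 none in the platform annotation. Symbols were updated by Entrez identifier for 20351 and kept for 29. The brightest probe set stood for each of 12393 genes, and the 8 measured members had 11 probe sets. Differences and standard errors came from limma 3.58.1 in R 4.3.3 (lmFit, eBayes, 2-sided, 2 residual degrees of freedom plus 3.51 borrowed), with Benjamini-Hochberg adjustment over all genes at 0.05. The code was tested on simulated data. Precision is limited by having 4 arrays.

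The members and all 20 lists (198 entries, 171 measured) were chosen with earlier results of these data known. Named genes were the members, a set of partners (Adrb3 was not analysed here), the highest and lowest difference of each list, and the 5 nearest to Lep; Ckm and Acta1 serve as further examples; some genes named by the rule are left unprinted. Promoters came from RefSeq on GRCm38.p6. Alternatives were quantile normalization, median centring, the mean of a gene's probe sets, leaving out probe sets with a suffix letter before _at, each sample left out, a filter at the median level, an intensity trend, and probe sets in place of genes.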

Additional observations from a re-analysis of the deposited data

Results flagged for a closer look

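In 2 of 60 named genes, 1 sample stood apart from the other 3 by Dixon's ratio above its 95% critical value, as it did for 4.21% of all genes and as chance gives in about 1 of 20 groups. Dsp, a desmosome gene of skin, had a ratio of 0.915, with 8.33 in skm5 against 4.12 to 4.48 in the other samples. Cd68, a macrophage gene, had a ratio of 0.884, with 7.21 in skm5 against 6.59 to 6.66. None of the 8 measured adipocyte genes exceeded the critical value, the highest ratio being 0.598 for Lipe.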

How the results depend on the processing

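No paired analysis was possible because all samples form 1 group with replicate numbers that only name them. The Lep difference and SD kept their size in the settings in which they were recomputed: leaving out 1 sample gave -2.62 to -1.91 for the difference and 1.11 to 1.52 for the SD, and the other settings -2.26 to -2.21 for the difference. The median difference of the members ran from -0.56 to -0.11 over samples left out, and the members without overlap from 5 to 7, of which 4 to 7 were lower and 0 to 2 higher. The genes called over all genes were 3 higher and 1 lower as reported; they numbered 186 with quantile normalization (48.9% higher), 92 with the mean of probe sets, 78 without suffix-marked probe sets, 1026 with the filter, 1110 with the trend, 308 with probe sets as units, and 0 to 15 with 1 sample left out. List genes called, 0 as reported, numbered 1 with quantile normalization (Rxra), and, in settings added after the data were seen, 19 with the filter and 23 with the trend, against 0 with any 1 sample left out. The cause of these changes was not tested. Of 670 other values, 608 moved by less than the spread and 62 by more, and 48 changed sign. Among the members, Retn, Fabp4, Cidec and Lipe changed sign in at least 1 setting. Other genes, among them Lpin1, Fabp5, Car3 and Mgll, and several list medians did so too. Pparg was not available without suffix-marked probe sets.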

Other observations

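Genes of brown fat and of adipose progenitors were read beside the adipocyte genes. Ucp1, the uncoupling protein that defines brown fat, read 10.80 and 11.24 in the nm samples and 11.14 and 11.29 in the skm samples, a difference of 0.19 ± 0.18 (SE, n = 2 per prefix) with overlap, which was -0.03 without nm7. Elovl3, another gene of brown fat, read 5.63, 5.93, 5.67 and 6.40. The 5 measured brown fat genes had a median difference of 0.04, and Cidea was the member lower in skm without overlap. That median was the value of Cox8b, which read 13.64, 13.66, 13.73 and 13.65. Whether myofibres contribute to the Cox8b values was not tested.

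The 8 measured genes of adipose progenitors and fibroblasts had a median difference of -0.13, which was 0.0035 without skm4. Without overlap, 3 were lower and 2 higher, where 28.6% and 25.8% of all genes were. Col15a1, a basement membrane collagen, read 10.09 and 10.38 in the nm samples and 9.66 and 9.61 in the skm samples (-0.60 ± 0.15). Dlk1, which restrains fat cell formation, read 7.54, 7.55, 7.71 and 8.10 (0.35 ± 0.16).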
